A study of Mus musculus with 10 samples.

Results

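The tumour necrosis factor (TNF) superfamily and the NF-κB pathway it signals through were examined in bEnd3 cells, an endothelial line from mouse brain that was made immortal by the middle T antigen of polyomavirus. The members were all features whose gene symbol begins with Tnfsf or Tnfrsf followed by a digit, together with 24 named genes of TNF, lymphotoxin and NF-κB signalling. This gave 52 measured genes of the 23111 named genes on the array, and 22 of the 24 named symbols were among them. Nfkb1, Traf3 and Tnfsf12 were not analysed here. By role the members comprised 13 ligands, 21 receptors, 5 adaptors, 3 members of the kinase step, 6 inhibitors or feedback regulators and 4 NF-κB subunits.

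Ligands of the TNF superfamily are made mostly by immune cells and bind receptors on the surface of their targets, among them endothelium. Bound receptors recruit TRAF adaptors and cIAP ubiquitin ligases. In the canonical branch the IKK complex then marks the IκB proteins for destruction, and NF-κB dimers that contain RELA or REL enter the nucleus. In the alternative branch the kinase NIK drives the processing of the NFKB2 precursor, whose product pairs with RELB. Several inhibitors, IκBα and A20 among them, are themselves NF-κB target genes and close negative feedback loops. In brain endothelium the pathway is best known for switching on adhesion molecules and chemokines in inflammation.

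The study compared 5 samples of bEnd3 cells transduced with a lentivirus carrying codon-optimised mouse Gata4 with 5 samples that received the same vector without the Gata4 cDNA (empty vector, EV). Both viruses used the EF1α promoter and carried mCherry and a puromycin resistance gene behind an IRES, and both groups were selected with puromycin. GATA4 is a zinc finger transcription factor, and the series title ties the work to organ-specific endothelial differentiation, liver development and blood formation in the embryo. The labels call the samples biological replicates but do not say whether each came from its own transduction or from 1 selected population, so p-values measure only the spread between these samples.

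Values are RMA expression levels on the log2 scale, scaled by the authors so that all arrays share 1 distribution, with a median of 4.16. Changes are Gata4 minus empty vector, so each is relative to the other genes. A gene was called when its limma adjusted p was under 0.05 over all 23111 genes. At that threshold 25.6% of all genes were called, 12.4% higher and 13.2% lower in the Gata4 samples. The Gata4 feature itself stood at 4.75 ± 0.16 in the empty-vector samples and 5.08 ± 0.17 in the Gata4 samples (SD, n = 5 each). It was called (limma, adjusted p = 0.017), although the groups overlapped, and the codon-optimised cDNA need not hybridise to probes for the mouse gene. All 10 endothelial markers checked, among them Cdh5 and Pecam1, had group means of 9.40 or more. In the Gata4 samples 3 of these 10 were higher and 4 lower, with Kdr (-1.18), Cldn5 (-1.04) and Ets1 (0.78) moving most. Of 8 pericyte or fibroblast markers Rgs5 (0.32) and Dcn (0.33) were higher and Pdgfra (-1.01) was lower, and their summed level ranged from 29.2 to 30.6 in the empty-vector and from 28.9 to 30.2 in the Gata4 samples. The part of these marker changes in the results below was not tested. The 8 leukocyte markers measured, Ptprc and Cd3e among them, had group means of at most 3.89, below the array median. Their summed level ranged from 26.3 to 27.1 in the empty-vector samples and from 26.6 to 27.2 in the Gata4 samples. Of these 8 markers Adgre1 was higher in the Gata4 samples (0.20, limma, adjusted p = 0.033) and 0 were lower. Of 7 glia or neuron markers 0 were called. Empty-vector samples 1 and 2 lay apart from the other 3 on the second principal component (-12.8 and -14.4 against 5.55 to 13.3), which held 5.26% of the variance. Called members that rest on this split are therefore given with and without that pair, as are some members that were not called.

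In the Gata4 samples 7 of the 52 members were higher and 11 lower, or 34.6% in all, against the 25.6% of all genes. Their median change was -0.04, against -0.01 over all genes. Calls were rare at the low end of the scale: 5.20% of the genes below the median level were called and 46.0% of those at or above it. Of the 32 members at or above that level 17 were called (53.1%), a share near that background, and of the 20 below it 1 was called. The number of calls is therefore no result about the members, and the account below turns on which members changed, in which direction and by how much. For 15 members, 6 higher and 9 lower, the ranges of the groups did not meet, which was so for 21.1% of all genes. A change of at least 1.5-fold was seen in 6 called members, namely Tnfrsf26, Tnfrsf22, Tnfrsf23, Nfkbia, Map3k14 and Nfkbie, against 7.39% of all genes.

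**Figure D1:**
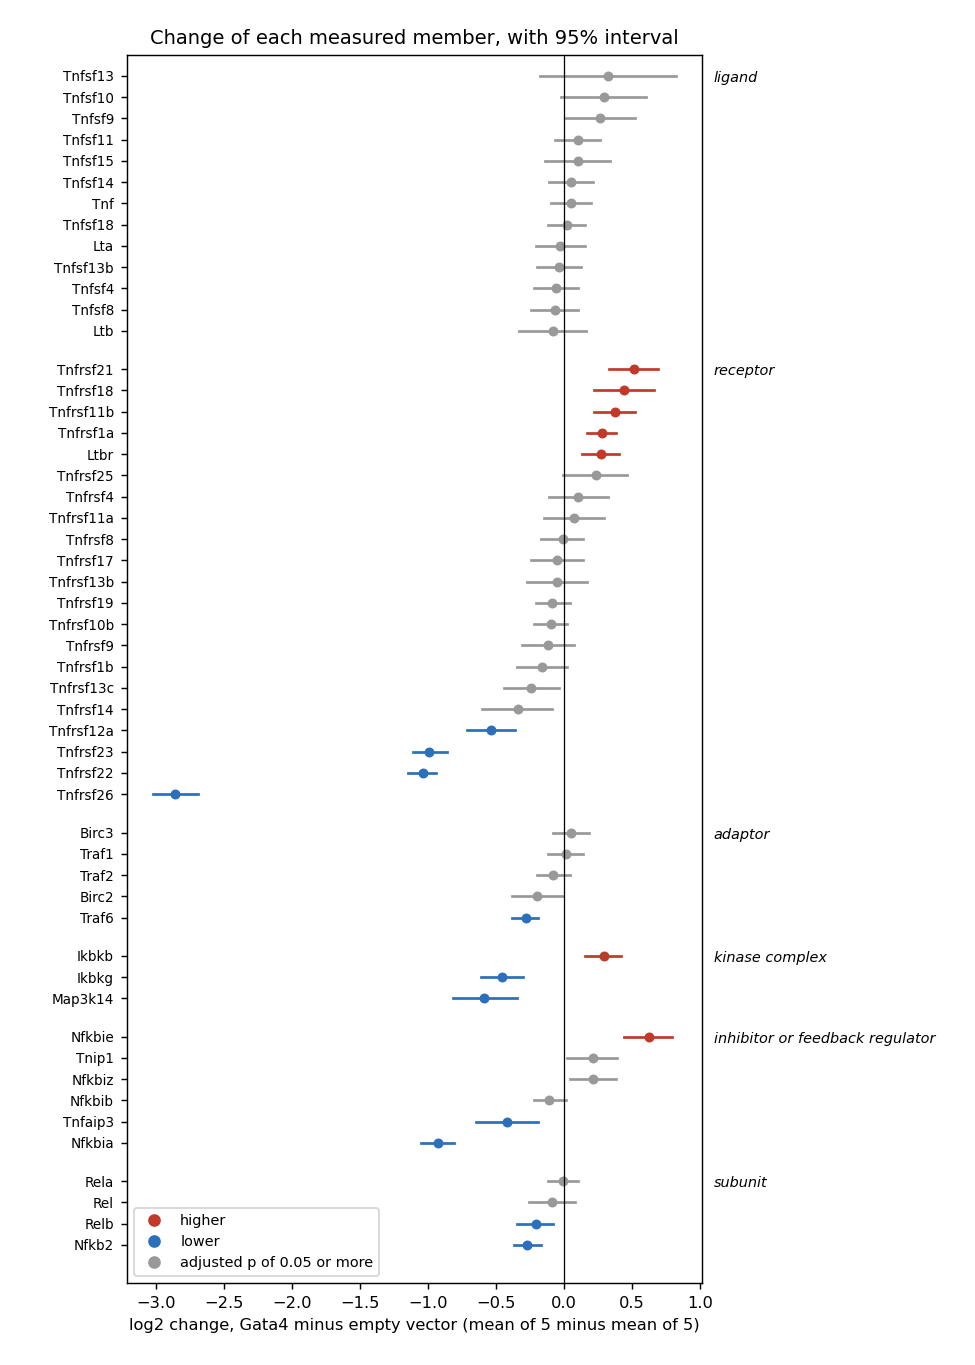
Log2 change (Gata4 minus empty vector, x axis) of each of the 52 members, grouped by role, with points for the estimate and lines for the 95% interval from limma. Tnfrsf26 stands farthest from 0 at -2.86, followed by Tnfrsf22, Tnfrsf23 and Nfkbia near -1, while all 13 ligands are grey.

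Promoter sequences are shown for the 3 members with the largest changes that a RefSeq promoter table holds, because they carry the results below: Nfkbia and Nfkbie, IκB genes that moved in opposite directions, and Tnfrsf23, one of a group of receptor genes that fell together. Each is the 250 bases before the annotated start (GRCm38.p6), written 5′ to 3′ on the gene's own strand. Capitals mark a match on either strand to the 10-base κB consensus, the binding motif of NF-κB. AGATAA and TGATAA, which cover a part of the sites that GATA factors bind, were searched for on both strands in the same way, and other GATA sites were not.
Nfkbia, chr12:55492648-55492897, minus strand: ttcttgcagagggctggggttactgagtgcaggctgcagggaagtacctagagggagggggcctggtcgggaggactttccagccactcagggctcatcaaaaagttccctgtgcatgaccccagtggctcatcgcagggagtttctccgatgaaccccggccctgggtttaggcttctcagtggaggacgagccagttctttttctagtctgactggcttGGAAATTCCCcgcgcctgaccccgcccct
Nfkbie, chr17:45555450-45555699, plus strand: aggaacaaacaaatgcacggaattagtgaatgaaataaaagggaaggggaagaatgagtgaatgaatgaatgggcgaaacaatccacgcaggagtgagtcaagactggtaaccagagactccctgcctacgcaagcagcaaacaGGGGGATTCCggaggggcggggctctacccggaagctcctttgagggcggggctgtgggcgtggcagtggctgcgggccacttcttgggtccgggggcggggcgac
Tnfrsf23, chr7:143685876-143686125, minus strand: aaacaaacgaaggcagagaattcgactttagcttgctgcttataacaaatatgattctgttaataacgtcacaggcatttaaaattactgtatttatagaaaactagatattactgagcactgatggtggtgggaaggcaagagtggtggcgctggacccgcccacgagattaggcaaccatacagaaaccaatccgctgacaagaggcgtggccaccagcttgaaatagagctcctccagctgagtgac

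The κB match of Nfkbia, GGAAATTCCC, covers bases 29 to 20 before the start, and that of Nfkbie, GGGGGATTCC, covers bases 106 to 97. The window of Tnfrsf23 holds neither the κB consensus nor these 2 GATA strings. Of the 52 members 43 have at least 1 window in the table, 54 windows in all. Tnfrsf26, Tnfrsf22, Tnfrsf11b, Tnfrsf10b, Ikbkb, Relb, Nfkbiz, Tnfsf4 and Tnfsf9 have no window and were not searched. The κB consensus occurs in 11 of the 54 windows (20.4%) and in 3.90% of all 32851 windows of this length. These 11 windows belong to 9 genes, Nfkb2 with several. The named members include NF-κB target genes such as Nfkbia and Tnfaip3, so the excess follows from how the members were chosen. The genes concerned are Nfkb2, Nfkbia and Tnfaip3, which were lower in the Gata4 samples, Nfkbie, which was higher, and Ltb, Rel, Tnfrsf8, Tnfrsf9 and Tnip1, which were not called. Members with a κB match thus include both directions and genes that were not called. The 2 GATA strings occur in 6 member windows (11.1%) and in 16.6% of all windows, and the genes concerned are Birc3, Ikbkg, Nfkbib, Tnfrsf9 and Tnfsf13b. Tnfrsf9 alone has a κB match and a GATA string in 1 window, and there they do not overlap. A match is a run of letters and not a shown binding site.

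None of the 13 ligands was called (limma), and 1 of them, Tnfsf9, had an unadjusted p under 0.05. Below the median level, where 12 of the 13 lay, only 5.20% of all genes were called, so few calls were to be looked for. The exact rank-sum test called 0 of them, which adds nothing. After adjustment it called only genes whose groups did not overlap, and the groups overlapped for all 13 ligands. Tnf, the founding cytokine of the family, read 3.19, 3.27, 3.45, 3.20 and 3.32 in empty-vector samples 1 to 5 and 3.52, 3.24, 3.34, 3.27 and 3.32 in Gata4 samples 1 to 5. The groups lay over each other at the low end of the scale, with a change of 0.05 (95% interval -0.10 to 0.20). The lymphotoxin genes Lta and Ltb changed by -0.03 and -0.08, again without a call. In all, 12 of the 13 ligands had a mean below the median of all gene means, where a value may be background and a change may be understated. The exception was Tnfsf9, which encodes the 4-1BB ligand. It stood at 4.34 ± 0.21 in the empty-vector and 4.60 ± 0.23 in the Gata4 samples, a change of 0.26 (adjusted p = 0.14). It passed the threshold without Gata4 sample 2 (0.36, adjusted p = 0.022). Empty-vector samples 1 and 2 were its lowest, and without them the change was 0.15 (limma, adjusted p = 0.47).

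Among the remaining ligands, Tnfsf10, the gene of the death ligand TRAIL, read between 3.05 and 3.56 in the empty-vector samples and between 3.36 and 4.12 in the Gata4 samples. Gata4 samples 4 and 5, at 3.65 and 4.12, lay above all empty-vector values, and the other 3 Gata4 samples lay within the empty-vector range. The change of 0.29 was not called (adjusted p = 0.18). Empty-vector samples 1 and 2 were the lowest for Tnfsf10, and without them its change was 0.14 (limma, adjusted p = 0.61). Tnfsf13, which encodes the B cell factor APRIL, varied more within its groups than between them, from 3.18 to 4.35 in the empty-vector samples and from 3.80 to 4.66 in the Gata4 samples. The other 7 ligands encode OX40L (Tnfsf4), CD30L (Tnfsf8), RANKL (Tnfsf11), BAFF (Tnfsf13b), LIGHT (Tnfsf14), TL1A (Tnfsf15) and GITRL (Tnfsf18). Their changes lay between -0.07 for Tnfsf8 and 0.10 for Tnfsf15.

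The receptors held the largest changes. Of 21 receptors 5 were higher and 4 lower, and 12 were not called. The share called was 42.9%, against 25.6% of all genes. Of the 21 receptors 13 lay at or above the median level, where 46.0% of all genes were called. The other 8 lay below it, where 5.20% were called, so 46.0% is not a like background for all receptors. Tnfrsf11b was the only called receptor below that level. Tnfrsf26, a member of the mouse TNF receptor family whose function is little known, read 8.91, 8.92, 8.79, 8.93 and 8.83 in empty-vector samples 1 to 5 and 6.20, 5.91, 5.93, 6.20 and 5.86 in Gata4 samples 1 to 5. Every Gata4 sample lay more than 2 log2 units below every empty-vector sample. The fall was 7.24-fold (95% interval 6.47 to 8.11; limma, adjusted p = 2.4e-11). The arrays read RNA of whole cultures, so fewer cells that express a gene and less of its RNA per cell cannot be told apart.

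Tnfrsf22 and Tnfrsf23 encode decoy receptors of mouse TRAIL, which bind the ligand but lack a working death domain. Tnfrsf22 read 9.56, 9.66, 9.53, 9.71 and 9.64 in the empty-vector samples and 8.57, 8.61, 8.61, 8.58 and 8.52 in the Gata4 samples. Tnfrsf23 read 11.45, 11.50, 11.47, 11.65 and 11.58 in the empty-vector samples and 10.62, 10.49, 10.63, 10.52 and 10.45 in the Gata4 samples. For both genes the 2 groups were well apart and the samples of a group lay close together. Tnfrsf22 fell 2.06-fold (95% interval 1.92 to 2.22; adjusted p = 5.7e-09) and Tnfrsf23 fell 1.98-fold (1.82 to 2.16; adjusted p = 4.5e-08). Tnfrsf10b, the TRAIL receptor of the mouse that carries a death domain, was not called, with 11.09 ± 0.07 in the empty-vector and 11.00 ± 0.08 in the Gata4 samples and a 95% interval of -0.22 to 0.02 for the change.

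The log2 change of Tnfrsf26 minus that of Tnfrsf22 was -1.81 ± 0.08 (SE), and minus that of Tnfrsf23 it was -1.87 ± 0.08, so Tnfrsf26 fell further than both. Both differences had an exact two-sided permutation p of 0.0079, the smallest that 252 assignments of the samples can give, or 0.0099 adjusted over 5 pairs of members chosen after their values were seen. Tnfrsf22 and Tnfrsf23 differed from each other by -0.06 ± 0.04 in their changes (exact permutation p = 0.17). The 3 genes are related in sequence. The probe sequences were not used here, so how far the features read each other's transcripts was not tested.

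Tnfrsf26, Tnfrsf22 and Tnfrsf23 follow each other among the measured genes of chromosome 7 in the RefSeq gene order (GRCm38.p6), in a part of the chromosome that also holds imprinted genes such as Cdkn1c and Phlda2. Of the 10 measured neighbours 1 also fell. It was Cars, the cysteinyl-tRNA synthetase gene next to Tnfrsf26, which fell by 0.72 ± 0.08 (SE) on the log2 scale (adjusted p = 2.8e-05). Beyond it Nap1l4 changed by -0.09 without a call, and Phlda2, Slc22a18 and Cdkn1c rose by 0.44, 0.51 and 0.99. On the other side Osbpl5 rose by 0.21 (adjusted p = 0.0025), and Mrgprg, Mrgpre, Nadsyn1 and Dhcr7 were not called, with changes of 0.03 to 0.15. Cdkn1c and Phlda2 were low in the empty-vector samples, with means of 4.08 and 3.03. These neighbours were picked by position alone, 5 on each side.

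**Figure D2:**
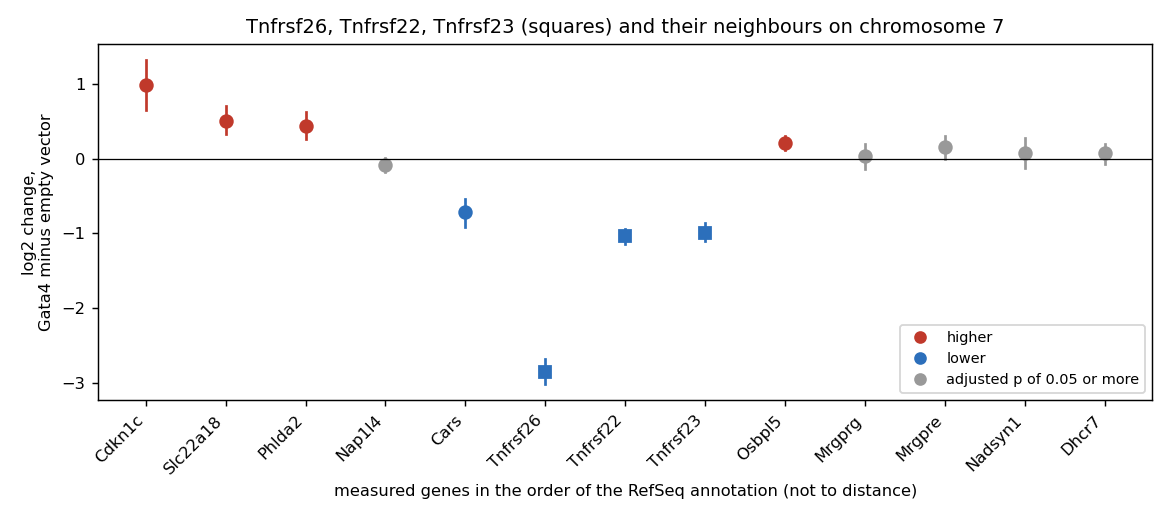
Log2 change (Gata4 minus empty vector, y axis) with its 95% interval for Tnfrsf26, Tnfrsf22 and Tnfrsf23 (squares) and 5 measured neighbours on each side (circles), in gene order along chromosome 7 and not to distance. The 3 receptor genes and Cars lie below 0, and 4 of the other 9 genes, Cdkn1c, Slc22a18, Phlda2 and Osbpl5, lie above 0 with a call.

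Tnfrsf12a, the gene of the TWEAK receptor FN14, read 10.04, 10.11, 9.70, 9.87 and 9.72 in the empty-vector samples and 9.28, 9.24, 9.41, 9.40 and 9.42 in the Gata4 samples. The groups did not overlap, and empty-vector samples 1 and 2 were the highest. The fall was 1.45-fold (limma, adjusted p = 0.00029). The log2 change was -0.54 with all samples and -0.41 without that pair (adjusted p = 0.0011).

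The 5 receptors that rose did so by less than 1.5-fold. Tnfrsf1a encodes the main receptor of soluble TNF, which carries a death domain. It read between 10.01 and 10.09 in the empty-vector samples and between 10.27 and 10.44 in the Gata4 samples, with no overlap, and rose by 0.28 ± 0.05 (SE) on the log2 scale (adjusted p = 0.00064). Tnfrsf1b, the second TNF receptor gene, was low in both groups (3.76 ± 0.17 and 3.60 ± 0.11) and was not called. Ltbr, the lymphotoxin β receptor gene and an activator of the alternative branch, rose by 0.27 ± 0.06 from 8.40 ± 0.10 to 8.67 ± 0.10 (adjusted p = 0.0072).

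Tnfrsf21 encodes death receptor DR6, which is needed for the growth of brain vessels and their barrier in the mouse. It read 7.24, 7.30, 7.11, 6.94 and 6.90 in the empty-vector samples and 7.57, 7.49, 7.72, 7.71 and 7.55 in the Gata4 samples. All Gata4 values lay above all empty-vector values, and the rise was 1.42-fold (adjusted p = 0.00049). Empty-vector samples 1 and 2 were its highest, and the log2 change was 0.51 with all samples and 0.62 without that pair (adjusted p = 0.00015). Tnfrsf18, the GITR gene, rose by 0.44 ± 0.10 (limma, adjusted p = 0.0056), but Gata4 sample 5 overlapped the empty-vector samples. That sample read 5.55, within the empty-vector range of 5.27 to 5.63. The exact rank-sum test did not call Tnfrsf18 (adjusted p = 0.064), which only restates this overlap. Tnfrsf11b encodes osteoprotegerin, a secreted decoy for RANKL. It rose by 0.37 ± 0.07 (adjusted p = 0.0014) without overlap, from 3.42 ± 0.08 to 3.78 ± 0.14, both below the array median. It was the only called member whose mean lay there.

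Of the receptors that were not called, Tnfrsf14 (HVEM) and Tnfrsf13c (the BAFF receptor) came nearest, with changes of -0.34 (adjusted p = 0.052) and -0.24 (adjusted p = 0.083). Empty-vector samples 1 and 2 were the highest for Tnfrsf13c, and without them its change was -0.12 (limma, adjusted p = 0.42). Tnfrsf25, the TL1A receptor gene, changed by 0.23 (adjusted p = 0.16) and Tnfrsf11a, the RANK gene, by 0.07. Tnfrsf4, Tnfrsf8, Tnfrsf9, Tnfrsf13b, Tnfrsf17 and Tnfrsf19 had means between 3.09 and 3.69 in both groups and changes between -0.12 and 0.10. Most of these 6 are receptors of lymphocytes.

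**Figure D3:**
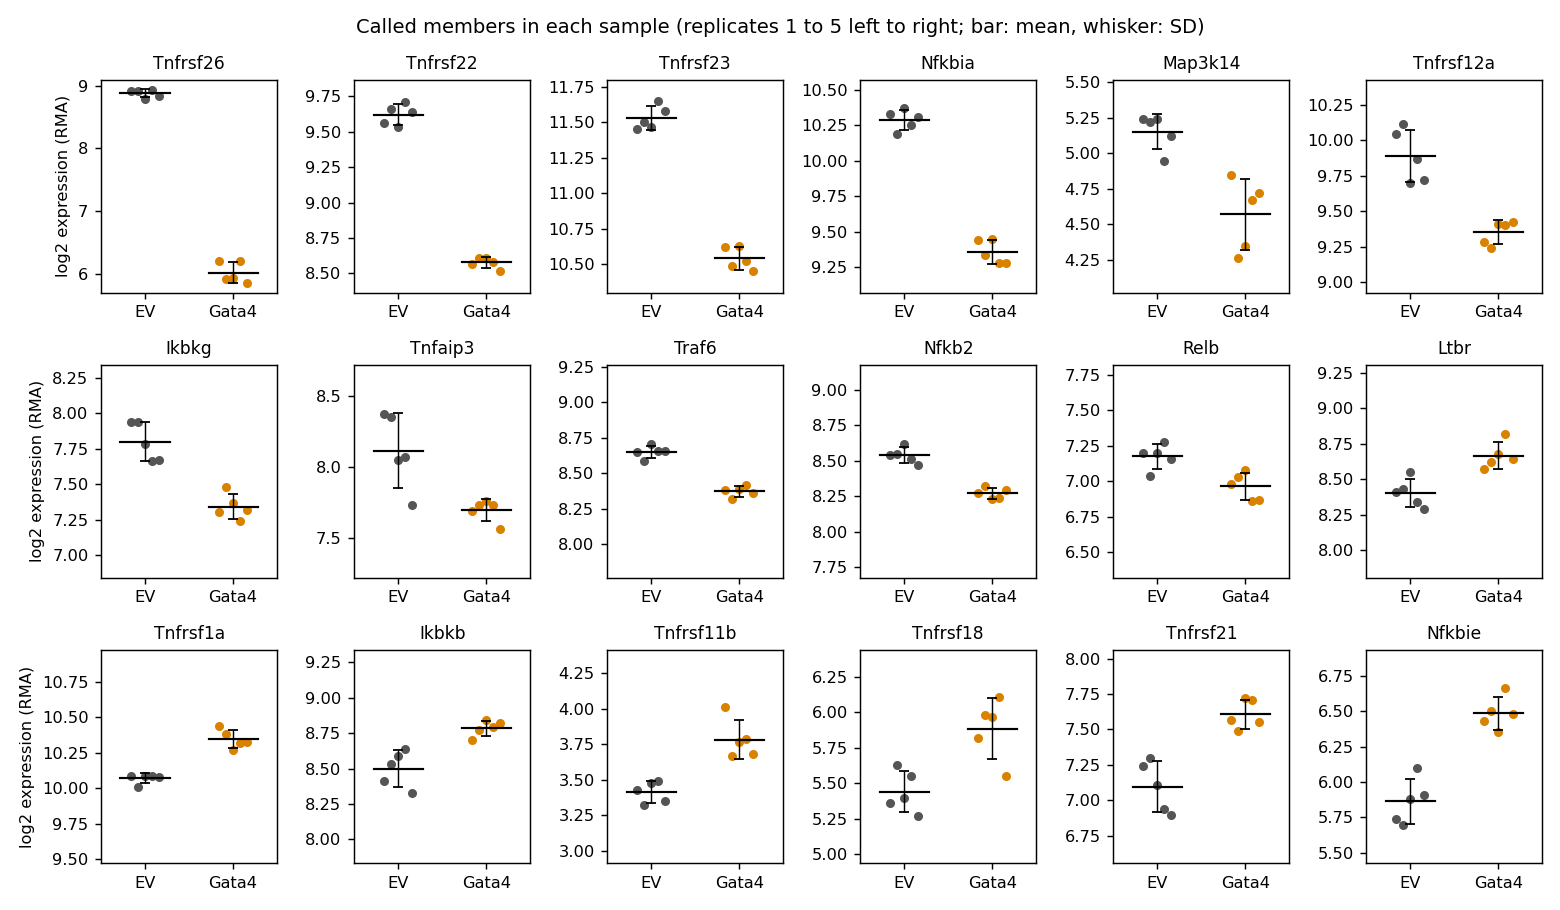
Log2 expression (RMA) of the 18 called members in each sample, ordered from the largest fall to the largest rise. Points are replicates 1 to 5 from left to right, horizontal bars group means and whiskers SD (n = 5), and each panel has its own scale that spans at least 1.5 log2 units. The groups overlap for Tnfaip3, Relb and Tnfrsf18 and are apart in the other 15 panels.

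Among the adaptors 1 of 5 was called, and all 5 lay at or above the median level, where 46.0% of all genes were called. Traf6 encodes a ubiquitin ligase used by CD40, RANK and the interleukin 1 and Toll-like receptors. It read 8.65, 8.59, 8.71, 8.66 and 8.66 in the empty-vector samples and 8.38, 8.32, 8.39, 8.42 and 8.36 in the Gata4 samples. The samples of each group lay close together and the groups were apart. The fall was small, 1.21-fold (limma, adjusted p = 0.00034). Empty-vector samples 1 and 2 were its lowest, and the log2 change was -0.28 with all samples and -0.30 without that pair (adjusted p = 0.0014). Traf2, the adaptor of both TNF receptors, and Traf1 changed by -0.08 and 0.01 without a call. Of the cIAP genes, Birc3 changed by 0.05 and Birc2 by -0.20 (adjusted p = 0.13). Birc2 passed without empty-vector samples 1 and 2 (-0.29, adjusted p = 0.039).

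All 3 measured members of the kinase step changed, in both directions. They lay at or above the median level, where 46.0% of all genes were called, and 3 genes are too few to compare with that share. Map3k14 encodes NIK, the kinase that starts the alternative branch. It read 5.24, 5.22, 5.24, 4.95 and 5.12 in the empty-vector samples and 4.85, 4.26, 4.35, 4.67 and 4.72 in the Gata4 samples. The groups did not overlap, although Gata4 sample 1 came close to empty-vector sample 4. Map3k14 fell by 0.59 ± 0.11 on the log2 scale (limma, adjusted p = 0.0013). Ikbkg, the gene of the scaffold subunit NEMO of the IKK complex, fell 1.37-fold from 7.80 ± 0.14 to 7.34 ± 0.09 (adjusted p = 0.00036). Empty-vector samples 1 and 2, both at 7.94, were its highest, and without them the change was -0.36 (adjusted p = 0.0026).

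Ikbkb, the gene of the catalytic subunit IKKβ of the same complex, moved the other way. It rose by 0.29 ± 0.06 from 8.50 ± 0.13 to 8.79 ± 0.06 (adjusted p = 0.0047), and its groups did not overlap, with 8.64 as the highest empty-vector and 8.70 as the lowest Gata4 value. The changes of Ikbkb and Ikbkg differed by 0.74 ± 0.10 (SE). The exact permutation p (0.0079, adjusted over 5 pairs 0.0099) adds nothing here. Genes that move in opposite directions without overlap must give the smallest possible value.

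The inhibitors also split. Nfkbia encodes IκBα, the inhibitor that is destroyed when the canonical branch is activated and whose own gene is an NF-κB target. It read 10.33, 10.19, 10.37, 10.25 and 10.31 in the empty-vector samples and 9.44, 9.34, 9.45, 9.28 and 9.28 in the Gata4 samples. The highest Gata4 value lay well below the lowest empty-vector value. Nfkbia fell 1.91-fold (95% interval 1.76 to 2.07; limma, adjusted p = 5.3e-08).

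Nfkbie encodes IκBε, an inhibitor of the same family that holds mainly dimers with RELA or REL. It read 5.74, 5.70, 5.88, 6.10 and 5.91 in the empty-vector samples and 6.43, 6.50, 6.35, 6.66 and 6.48 in the Gata4 samples, again with no overlap. It was the largest rise among the members, 1.54-fold (95% interval 1.36 to 1.73; adjusted p = 6.9e-05). Without empty-vector samples 1 and 2, its lowest, the change went from 0.62 to 0.52 (adjusted p = 0.00073). Nfkbie and Nfkbia differed by 1.55 ± 0.11 (SE) in their changes. The exact permutation p (0.0079, adjusted 0.0099) was fixed in advance, because both genes moved without overlap and in opposite directions. Both promoters printed above hold 1 κB match. Nfkbib, the gene of IκBβ, changed by -0.11 (95% interval -0.22 to 0.01) and was not called.

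Tnfaip3 encodes A20, a ubiquitin-editing enzyme that ends NF-κB signalling and is induced by it. It read 8.37, 8.35, 8.05, 8.07 and 7.73 in the empty-vector samples and 7.69, 7.73, 7.76, 7.73 and 7.56 in the Gata4 samples. Empty-vector samples 1 and 2 were highest, and empty-vector sample 5 lay within the Gata4 range. The change was -0.42 ± 0.11 (limma, adjusted p = 0.010), but -0.26 without that pair, where the call was lost (adjusted p = 0.056). The exact rank-sum test did not call Tnfaip3 either (adjusted p = 0.095), which only restates the overlap of its groups. Tnip1, which encodes the A20 partner ABIN1, and Nfkbiz, the gene of the nuclear protein IκBζ that serves as a cofactor of NF-κB, each changed by 0.21 without a call (adjusted p = 0.10 and 0.064). With the replicate number as a block Tnip1 was called (adjusted p = 0.025). Empty-vector samples 1 and 2 were its lowest, and without them its change was 0.10 (limma, adjusted p = 0.46).

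The subunits of the alternative branch were slightly lower. Nfkb2 read between 8.47 and 8.62 in the empty-vector samples and between 8.23 and 8.32 in the Gata4 samples. The groups were apart and the fall was 1.21-fold (limma, adjusted p = 0.00057). Relb changed by -0.21 ± 0.06 (adjusted p = 0.020) with overlapping groups. Its call was lost with the replicate block (adjusted p = 0.053) and without Gata4 sample 4, Gata4 sample 5 or empty-vector sample 4 (adjusted p = 0.052, 0.054 and 0.053, with a change of -0.19 in each of these 3). Rela, the gene of the main activating subunit of the canonical branch, stood at 10.61 ± 0.07 and 10.60 ± 0.06, and the 95% interval of its change was -0.12 to 0.10. Rel changed by -0.09 (95% interval -0.26 to 0.08).

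The rest of the pathway was read from 4 gene lists. Of 11 superfamily genes whose symbols do not follow the Tnfsf or Tnfrsf pattern 3 were higher and 0 lower (limma), and 3 had an unadjusted p under 0.05, none of them lower. The share called, 27.3%, was near the 25.6% of all genes, and the median change was -0.03. The genes that rose were receptors. Fas, the death receptor gene, rose 2.81-fold from 6.14 ± 0.23 to 7.64 ± 0.20. Eda2r, a receptor gene for ectodysplasin, rose 1.99-fold from 9.34 ± 0.08 to 10.33 ± 0.06 (adjusted p = 1.7e-08). Cd40 rose 1.41-fold from 4.46 ± 0.15 to 4.95 ± 0.16. The ligand genes Fasl, Cd40lg, Cd70 and Eda changed by -0.05 to 0.04 and were not called.

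Of 32 measured genes of receptor-proximal signalling 8 were higher and 6 lower, with a median change of 0.08. The share called, 43.8%, was near the 46.0% of all genes at or above the median level, where 28 of the 32 lay. The adaptor gene Traf4 rose 2.16-fold (adjusted p = 3.8e-07), the kinase gene Tnik 2.11-fold (adjusted p = 1.7e-05) and Map3k7, which encodes the IKK-activating kinase TAK1, 1.60-fold (adjusted p = 2.3e-06). Bcl10, an adaptor of the CARD and MALT1 complex, fell 1.72-fold (adjusted p = 4.2e-07). Cyld, the gene of a deubiquitinase that restrains NF-κB, fell 1.61-fold (adjusted p = 1.6e-06), and Traf5 fell 1.52-fold (adjusted p = 0.0020). Cflar, the gene of the caspase-8 inhibitor FLIP, fell by 0.49 on the log2 scale. Tradd, the adaptor of the TNF receptor, was not called (0.13), nor was Fadd (0.07), while Casp8 fell by 0.24.

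Of 22 other regulators of NF-κB 1 was higher and 6 lower, with a median change of -0.07 and no called change of 1.5-fold. The share called was 31.8%, against 46.0% of all genes at or above the median level, where 21 of the 22 lay. The lower genes were led by Bcl3, an IκB-like cofactor of NF-κB (-0.33, limma, adjusted p = 0.022), N4bp1 (-0.30) and Commd1 (-0.30). Nkap was the gene that rose (0.20, limma, adjusted p = 0.044). The groups overlapped for Bcl3, Commd1 and Nkap and not for N4bp1.

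Of 40 measured genes that TNF is known to induce in endothelium or other cells 8 were higher and 13 lower, with a median change of -0.09. The share called was 52.5%, against 25.6% of all genes. Of the 40 genes 27 lay at or above the median level, where 46.0% of all genes were called. The other 13 lay below it, where 5.20% were called, so 46.0% is not a like background for the whole list. The chemokine gene Ccl2 fell 6.60-fold, and the genes of E-selectin and P-selectin, Sele and Selp, fell 4.39-fold and 4.12-fold. The opposite way went Vcam1, an adhesion molecule gene (2.95-fold higher, adjusted p = 2.5e-09), Il1a (2.85-fold) and the chemokine gene Cxcl5 (2.52-fold, adjusted p = 1.5e-07). Il1a and Cxcl5 started from low means of 3.14 and 3.79. Icam1, Cxcl1 and Cxcl10 were not called (limma, adjusted p = 0.50, 0.68 and 0.98). Icam1 was low, with means of 4.45 in the empty-vector and 4.32 in the Gata4 samples, near the array median of 4.16. Earlier results of these data had already shown some of these genes, so their directions are no separate evidence.

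**Figure D4:**
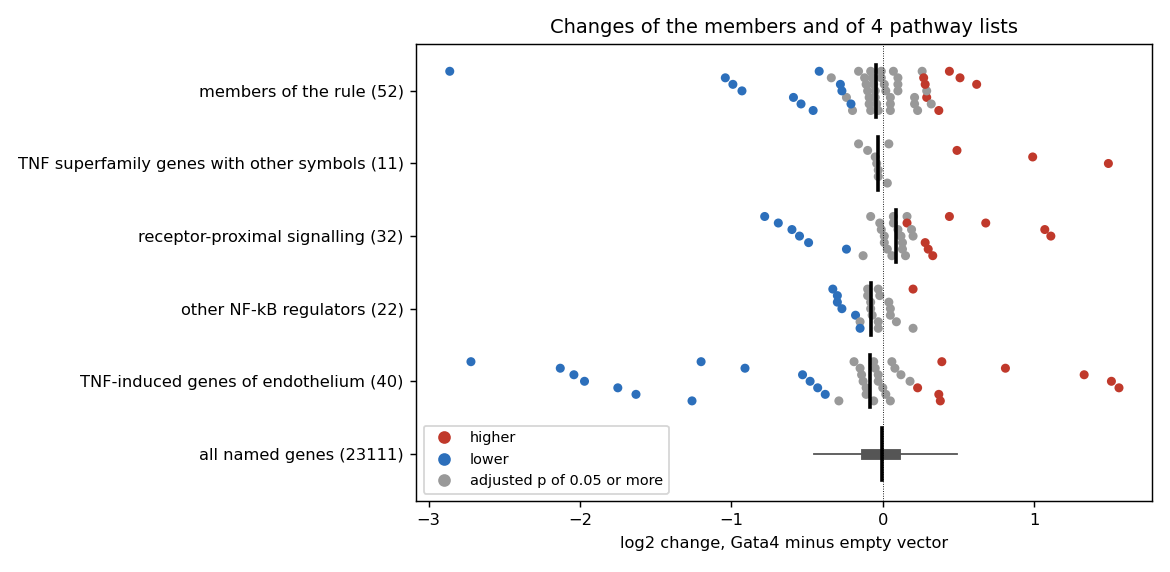
Log2 change (Gata4 minus empty vector, x axis) of each gene of the 52 members and of 4 pathway lists, with the number of genes in brackets. Black bars are medians, and for all 23111 named genes the thick and thin lines span the 25th to 75th and the 5th to 95th percentiles (-0.46 to 0.49). Every list has genes on both sides of 0, and its median lies within 0.10 of 0.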

How the data were processed

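Total RNA of 10 bEnd3 samples was hybridised as biotinylated cRNA to Affymetrix arrays. The authors made the deposited log2 values with RMA, per the submitters' processing notes. Its version, the probe annotation and the build were not given in the sources used here. Coordinates are therefore printed for RefSeq promoters only. RMA's quantile normalisation hides shifts shared by all genes, and the table carries no detection call. The number of arrays limits the precision.

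Of 23748 features 23111 had 1 platform symbol, 0 several and 637 none. All 52 member symbols were in the RefSeq table. limma 3.58.1 (R 4.3.3; lmFit, eBayes, no trend or block) was fitted to the 23111 genes, with Benjamini-Hochberg adjustment, and tested on simulated data. Errors are moderated SE or SD over 5 samples. Replicates correlated at 0.9964 to 0.9977, and 0 columns were identical. Values in every sample were planned for called members with at least 1.5-fold change, and more were added after values were seen. In the other lists up to 3 called genes per direction were named, with further genes added after their values were seen. Members, lists and the left-out pair of empty-vector samples were chosen with earlier results of these data known. Alternatives were a replicate block, trend, robust fits, array weights, unnamed features, level filters, recentring, left-out samples and an exact rank-sum test.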

Additional observations from a re-analysis of the deposited data

Results flagged for a closer look

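In 104 groups of 5 samples (52 members, 2 groups each) 5 held 1 sample far from the other 4, its gap to the nearest exceeding 0.71 of the group's range. Chance gives about 1 in 20, or 5.2 groups. Lta read 3.20 in Gata4 sample 4, against 3.40 to 3.43 in the other Gata4 samples. Tnfrsf1a read 10.01 in empty-vector sample 2, against 10.08 to 10.09. Tnfrsf1b read 4.06 in empty-vector sample 1, against 3.64 to 3.76. Traf1 read 4.19 in empty-vector sample 2, against 4.12 in the other 4, and Traf2 read 7.94 in empty-vector sample 5, against 7.85 to 7.87. Of these genes only Tnfrsf1a was called.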

How the results depend on the processing

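The counts of 7 higher and 11 lower members stayed within 1.5 times under all 20 alternatives, at 6 to 9 higher and 9 to 12 lower, with 15 to 20 calls in all. The lowest counts, 6 and 9, came from the exact rank-sum test, whose p cannot go below 0.0079. After adjustment that test called only genes whose groups did not overlap, so it is no separate check on overlapping members. With 1 sample left out the counts were 7 to 9 higher and 10 to 12 lower. Of the 18 called members 14 were called under every alternative. Tnfrsf11b was left out of the genes above the median level and was called under the other 19. Calls were lost for Relb in 5 alternatives, for Tnfaip3 in 2 and for Tnfrsf18 in 1. No called member changed sign. Of members never called, 12 changed sign somewhere, with changes of at most 0.04. Tnfrsf14 gained a call in 5 alternatives, Nfkbiz in 3, Tnfrsf13c in 2, and Tnip1, Birc2, Tnfsf9 and Tnfrsf25 in 1 each. The cause of these moves was not tested. With replicate number as a block, 8 members were higher and 10 lower. Whether the numbers pair the samples cannot be told from these values. The correlations of deviations were low, between -0.018 and 0.087, but 3 of 5 Gata4 samples correlated best with their own number. Values near the low end of the scale limit what can be seen of the ligands.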
